A study of Mus musculus with 37 samples.

Results

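The effect of losing Wfs1 on gene expression was examined in the temporal lobe of mice of the strain labelled C57, which the series design writes as C57B6. The arrays labelled C57 and WFS1 KO (9 arrays, called C57 KO here) were set against those labelled C57 with the wild-type genotype (9 arrays, C57 WT), which is 18 of the 37 arrays of the series. All 45037 probe sets other than the manufacturer's controls entered the comparison. The other 19 arrays came from KO and WT mice of the strain labelled 129SV (called 129 here), and their values stand beside those of C57 only where a C57 difference is described. No group had a drug or other treatment named in the labels, and all samples were temporal lobe, dissected under a microscope and frozen. The labels give neither the knockout allele, the number of backcrosses, the sex, the age nor the litter, and they do not state that each array is a separate animal. The p-values therefore measure the spread between these samples. Effects of Wfs1 loss and of any other DNA difference between the C57 KO and C57 WT animals cannot be told apart in this comparison.

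Wfs1 encodes wolframin, a membrane protein of the endoplasmic reticulum (ER) that takes part in ER calcium balance and in the response to unfolded proteins. Mutations of the human gene cause Wolfram syndrome, with diabetes and loss of vision and of neurons. In the mouse forebrain the gene is strongly expressed in the hippocampal field CA1, in the central amygdala and in parts of the cortex and ventral striatum. The arrays were made from bulk tissue, so fewer cells of a type and less RNA per cell cannot be told apart in any difference given here.

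All values are log2 signals, on which a difference of 1 is a doubling, and differences are C57 KO minus C57 WT. Array medians lay between 4.30 and 4.35, and any pair of the 18 arrays correlated at 0.987 or more over all probe sets, with no identical pair. The difference between the 3' and 5' actin probe sets, a sign of RNA quality, ran from 0.95 to 1.94 in KO and from 1.03 to 1.66 in WT. Eif2s3y, a gene of the Y chromosome, was at 5.84 to 7.02 on all 18 arrays, and Xist, expressed from the inactive X, at 3.98 to 4.92. The median signal was 7.46 for cortical layer genes and 6.38 for genes of amygdala and claustrum. It was 8.18 for genes of striatal medium spiny neurons and 4.04 for hippocampal markers other than Wfs1. Blood (3.01), pituitary (3.15) and choroid plexus genes (2.76) were dim. Within both genotypes the arrays with lower and with higher sample numbers formed separate sets. The nuclear RNA Malat1 was at 8.13 to 9.58 in the 9 arrays of the first set and at 10.25 to 11.32 in the other 9. The lower set held 5 KO and 4 WT arrays and the higher set 4 and 5, and results below are also given within each set where they change.

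Wfs1 itself was the most strongly changed of all probe sets. Its signal (probe set 1448411_at) had a lowest, median and highest value of 2.75, 2.93 and 3.60 in KO and of 9.16, 9.27 and 9.73 in WT. The ranges lay far apart, and the labels of all 18 arrays matched this gene. Where the probe set lies relative to the deleted part of the gene was not examined here. The difference was -6.29 (SE 0.10), a 78.0-fold lower signal, with an adjusted p of 1.96e-20 (limma's moderated test, Benjamini-Hochberg over all probe sets). The KO level lay below 3.6, the 40th percentile of probe set means, where the background correction sets much of the value, so the fold describes a signal near background. The same loss was seen in 129, where the difference was -6.22. The bases before the start of Wfs1 are shown because the comparison rests on this gene, and because the ER stress genes described further on are read from the same window. They are the 250 bases upstream of the annotated start in the RefSeq build GRCm38.p6, 5′ to 3′ on the strand of the gene.
Wfs1, chr5:36988983-36989232, minus strand: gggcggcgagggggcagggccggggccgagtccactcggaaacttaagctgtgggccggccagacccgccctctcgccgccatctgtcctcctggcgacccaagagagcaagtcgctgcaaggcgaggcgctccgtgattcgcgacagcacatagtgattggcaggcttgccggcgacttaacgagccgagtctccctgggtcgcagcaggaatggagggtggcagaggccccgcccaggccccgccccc

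Beyond Wfs1 few probe sets passed the test. At an adjusted p under 0.05, 11 of 45037 probe sets (0.0244%) were called, of which 3 (0.00666%) were higher and 8 (0.0178%) lower in KO. Of these 11, 7 carried a gene symbol and belonged to 5 genes, namely Wfs1, Jakmip1, Abhd1, Drc1 and Ppp1cb, and all 5 lie on chromosome 5. The other 4 had no symbol in the annotation. On 12 probe sets (0.0266%) the KO and WT arrays did not overlap at all, and 8 of the 12 were called. A difference of at least 0.5 in either direction was found for 141 probe sets (0.313%), 36 higher and 105 lower. Without adjustment, 2486 probe sets (5.52%) had p under 0.05. The 95% interval of the difference lay wholly within 0.5 of 0 for 96.6% of all probe sets, those near background included.

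Fitted alone, each array set gave fewer calls, while the differences listed next kept their direction in both. The calls were made on the arrays of both sets together. A kept direction therefore follows largely from that selection and is no separate support. Values are given for some of the called probe sets only. The differences of Jakmip1 1433815_at were -1.98 in the lower-number and -1.74 in the higher-number arrays, those of Abhd1 1.67 and 1.08, those of Drc1 0.54 and 0.72, and those of Ppp1cb 1431328_at 0.61 and 0.85. Fitted alone, the lower set gave 8 called probe sets and the higher set 2, which were Wfs1 and Jakmip1. With the array set as a block 17 were called, and with the spread estimated from all 37 arrays 35 were, the 11 among them. These 35 included 25 probe sets with a symbol, of which 20 lie on chromosome 5.

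**Figure D1:**
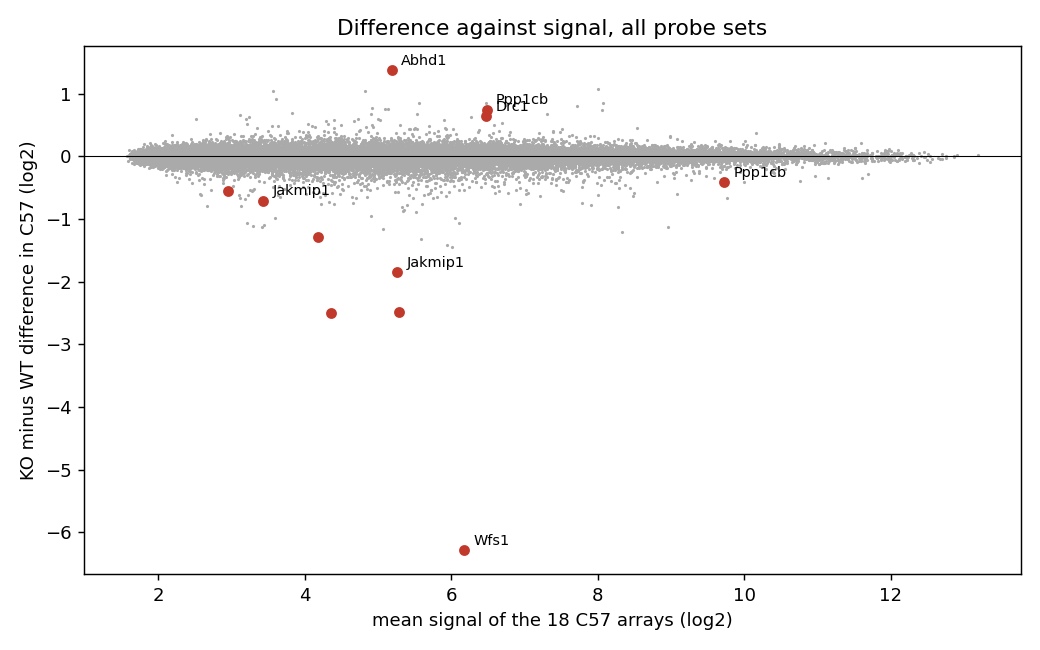
KO minus WT difference in C57 (log2, vertical axis) against the mean signal of the 18 arrays (log2, horizontal axis), with a grey point for each of the 45037 probe sets and a red point for each of the 11 called. Wfs1 lies at -6.29, Abhd1 is the highest called point at 1.38, and the 4 red points without a name have no gene symbol.

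Jakmip1, next to Wfs1 among the protein-coding genes of the chromosome, was lower in KO. It encodes a neuronal protein that binds microtubules, Janus kinases and GABA-B receptors. With probe set 1433815_at the lowest, median and highest signals were 4.08, 4.41 and 4.52 in KO and 5.83, 6.22 and 6.49 in WT. The lowest WT array was above the highest KO array by more than the whole range of either group. The difference was -1.85 (SE 0.08, adjusted p 5.43e-12 by limma), a 3.61-fold lower signal. A second probe set of the gene, 1430597_at, was called as well at -0.71 (SE 0.08, adjusted p 0.0003 by limma), with KO between 2.85 and 3.40 and WT between 3.63 and 4.09. This one is dim and its groups did not overlap either. The brightest probe set of the gene, 1441317_x_at, ran from 9.10 to 9.61 in KO and from 9.46 to 9.79 in WT, and its difference of -0.31 (SE 0.06) did not pass (adjusted p 0.162 by limma). The remaining one, 1457080_at, differed by -0.10 (adjusted p 0.953). The 4 probe sets of Jakmip1 thus gave differences of unequal size, and the mean over them was -0.74 (adjusted p 3.74e-10 by limma on means per gene).

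Abhd1 was the gene with the largest called rise. Its product belongs to the alpha/beta hydrolase superfamily. Probe set 1418148_at gave a lowest, median and highest signal of 5.61, 5.84 and 6.17 in KO and of 4.14, 4.40 and 5.37 in WT. The groups did not overlap, although WT array 34 (5.37) stood apart from the other WT arrays, the highest of which was 4.71. The difference was 1.38 (SE 0.13, adjusted p 1.1e-05 by limma), a 2.60-fold higher signal. Without WT array 34 it was 1.49.

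Drc1, a subunit of the nexin-dynein regulatory complex of motile cilia, rose as well. Its signals (1455279_at) had a lowest, median and highest value of 6.65, 6.78 and 6.95 in KO against 5.83, 6.10 and 6.56 in WT, with no overlap. The difference was 0.64 (SE 0.08, adjusted p 0.00128 by limma). Drc1 was the sole called member among 25 measured genes of motile cilia and ependyma, whose median difference was 0.06, with 16 of the 25 above 0. Cfap69, another cilium gene of chromosome 5, had a difference of -0.59 that did not pass (adjusted p 0.652). Over the brightest probe sets of all 18193 genes the median was 0.02 and 40.6% of genes were below 0.

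Ppp1cb, a catalytic subunit of protein phosphatase 1, had probe sets called in opposite directions. Probe set 1431328_at was at 6.70, 6.91 and 6.98 in KO (lowest, median, highest) and at 5.73, 6.12 and 6.66 in WT. It rose by 0.74 (SE 0.10, adjusted p 0.00158 by limma). The brighter 1426205_at was at 9.37, 9.50 and 9.66 in KO and at 9.69, 9.95 and 10.31 in WT. It fell by 0.42 (SE 0.07, adjusted p 0.0405 by limma). Both left KO and WT without overlap. The 2 other probe sets of the gene were at -0.06 and 0.00 and did not pass, and the mean over the gene was 0.07 (adjusted p 0.903), so no single direction describes Ppp1cb. The call of 1426205_at was the least secure of the 11, since it was kept in 5 of the 18 fits that left out 1 array, whereas each of the other 10 was kept in all 18.

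**Figure D2:**
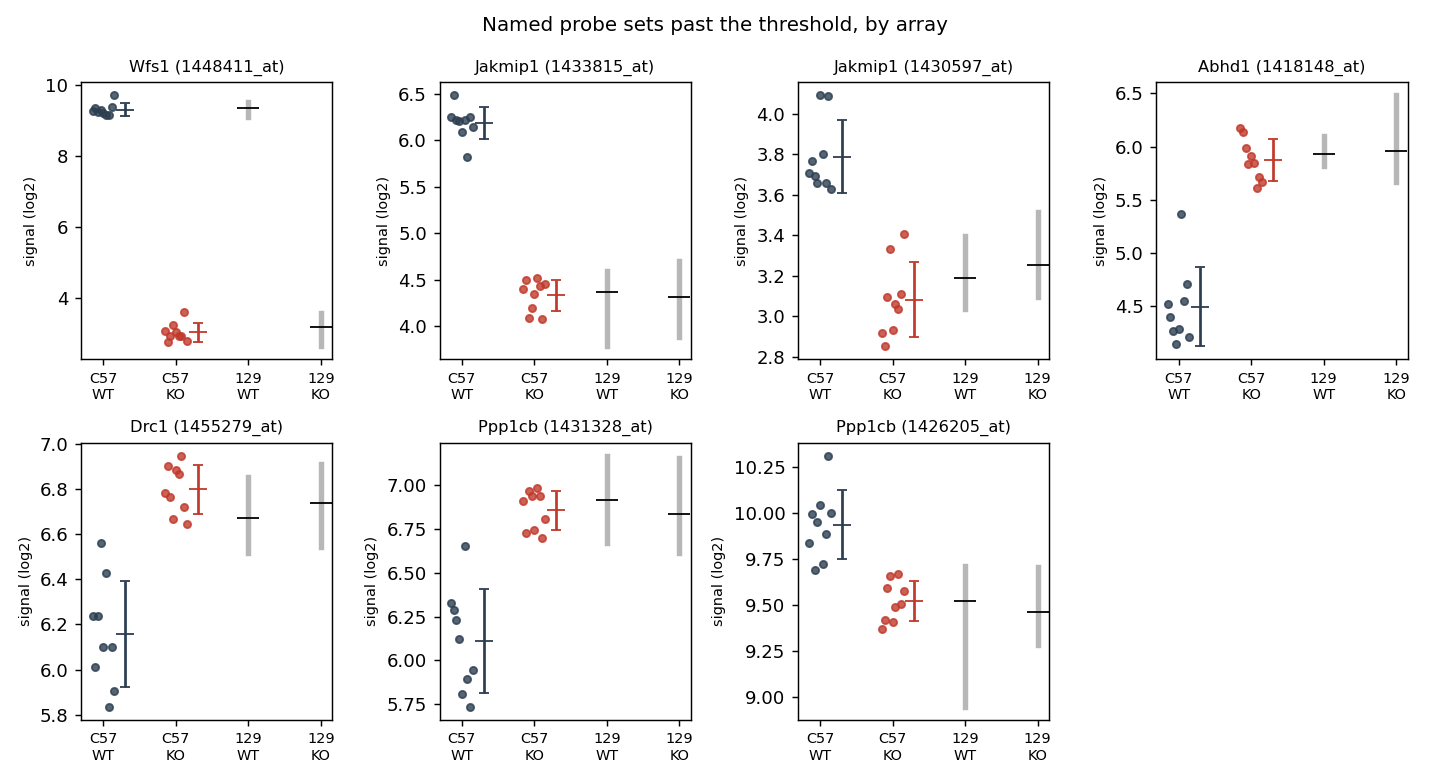
Signal (log2, vertical axes, each with its own range) of the 7 called probe sets that carry a gene symbol. Points are single arrays of C57 WT and C57 KO with their mean and SD (n = 9 each) at the side, and grey bars span the lowest to the highest array of 129 WT and 129 KO with the median as a black line. On each of the 7 panels the C57 points do not overlap, and on all but the Wfs1 panel the C57 KO points lie in or near the range of both 129 groups.

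The 4 called probe sets without a symbol were all lower in KO. Probe set 1440807_at had a lowest, median and highest signal of 2.50, 2.81 and 4.53 in KO and of 4.86, 5.81 and 6.15 in WT, a difference of -2.51 (SE 0.26, adjusted p 4.66e-05 by limma). Probe set 1446324_at ran from 3.13 through 3.61 to 6.23 in KO and from 5.38 through 6.54 to 7.21 in WT, with a difference of -2.49 (SE 0.36, adjusted p 0.00486). On 2 of the 9 KO arrays it reached the WT range. Probe set 1442241_at (-1.28, adjusted p 0.00195) and the dim 1447094_at (-0.55, adjusted p 0.00171) each did so on 1 KO array. The KO medians of 1440807_at, 1442241_at and 1447094_at (2.81, 3.42 and 2.67) lay below 3.6, as for Wfs1, so their differences are from a level near background. Their genes and positions are not named here, because the annotation used gives these probe sets no gene.

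The same probe sets in 129 showed where the C57 groups stood relative to the other strain. For Jakmip1 1433815_at the mean was 4.34 in C57 KO and 6.19 in C57 WT, beside 4.31 in 129 KO and 4.27 in 129 WT. For Abhd1 it was 5.88 in C57 KO and 4.50 in C57 WT, beside 5.96 and 5.95 in 129. Drc1 stood at 6.80 and 6.16 in C57 and at 6.74 and 6.69 in 129. Ppp1cb 1431328_at likewise had 6.86 and 6.11 in C57 and 6.86 and 6.93 in 129, and unnamed 1440807_at had 3.11 and 5.62 in C57 and 2.83 and 2.85 in 129. In each of these the C57 WT mean stood apart from the other 3 means, whereas for Wfs1 both KO means (3.03 and 3.11) stood apart from both WT means (9.32 and 9.33). The difference between the KO effects in C57 and 129 was tested on all 37 arrays, where 11 probe sets (0.0244%) passed. This test contains the C57 difference by which the 11 probe sets of C57 were called, so its count among them is no separate support. It passed for 9 of those 11, among them Jakmip1 1433815_at (-1.89, adjusted p 9.92e-12 by limma), Abhd1 (1.37, adjusted p 1.12e-06) and Drc1 (0.59, adjusted p 0.0028). It did not pass for Wfs1 (-0.06, adjusted p 1) or for Ppp1cb 1426205_at (-0.47, adjusted p 0.628). The knockout effect in C57 and the strain contrast of the WT groups share the C57 WT arrays, so these levels are given side by side and no overlap between the comparisons is counted.

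Chromosome 5 also held much of what came closest to the threshold. Of its 2206 probe sets 19 (0.861%) differed by at least 0.5, against 0.313% of all probe sets. The next highest share of a chromosome was 0.495%, on chromosome 19. Called probe sets of Wfs1, Jakmip1, Abhd1, Drc1 and Ppp1cb are counted in the share of chromosome 5, so it is not separate from the calls. Its 19 probe sets lay between 584 annotated genes before Wfs1 and 641 after it. The 1206 probe sets farther than 641 genes after Wfs1 hold none of the 19 by construction, since that limit is the last of them. Their median absolute difference was 0.05. Abhd1, Drc1 and Ppp1cb lie 169, 193 and 120 annotated genes before Wfs1. Within 50 annotated genes on either side of Wfs1 there were 74 probe sets of 41 genes, with a median difference of 0.00, and the 2 called ones belonged to Jakmip1 (Wfs1 itself left out). Uncalled probe sets with a gene name were ranked by moderated statistic, with clone names and mean signals under the 40th percentile left out. Of the 8 highest 5 lie on this chromosome, as do 4 of the 8 lowest. The chromosome holds 2206 of all 45037 probe sets. Dimmer ones such as Dmtf1 (-0.62, adjusted p 0.072 by limma) and Supt7l (0.60, adjusted p 0.109) were outside this ranking. Clock, a transcription factor of the circadian clock, was at 7.20 to 7.84 in KO and 7.01 to 7.42 in WT (difference 0.40, adjusted p 0.0607 by limma). Tomm7, a part of the mitochondrial import channel, had a difference of 0.60 (adjusted p 0.072), and Mrpl33, a mitochondrial ribosomal protein, one of 0.25 (adjusted p 0.214). Galnt11, a glycosyltransferase, was at 0.33 (adjusted p 0.0694) and Pus7, a pseudouridine synthase, at 0.34 (adjusted p 0.149). Lgi2, a secreted neuronal protein, was at 7.33 to 8.34 in KO and 8.08 to 8.52 in WT (difference -0.61, adjusted p 0.0607). Sod3, the extracellular superoxide dismutase, had a difference of -0.47 (adjusted p 0.208) and Atraid one of -0.33 (adjusted p 0.138). Atp8a1, a phospholipid flippase, differed by -1.12, the largest size among uncalled probe sets of the chromosome, with an adjusted p of 0.454. Away from chromosome 5, Zranb3, a DNA repair helicase on chromosome 1, came closest to the threshold in this ranking (0.29, adjusted p 0.0607 by limma). Its KO arrays (4.74 to 5.08) all lay above its WT arrays (4.48 to 4.69). Lrig2 (0.25, adjusted p 0.359) and Rrs1 (0.21, adjusted p 0.37) followed among the higher ones. Rasgrp2 (-0.28, adjusted p 0.323) was among the lower ones. The values of Clock, Tomm7, Rrs1 and Rasgrp2 come from probe sets that were not the brightest of their genes.

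**Figure D3:**
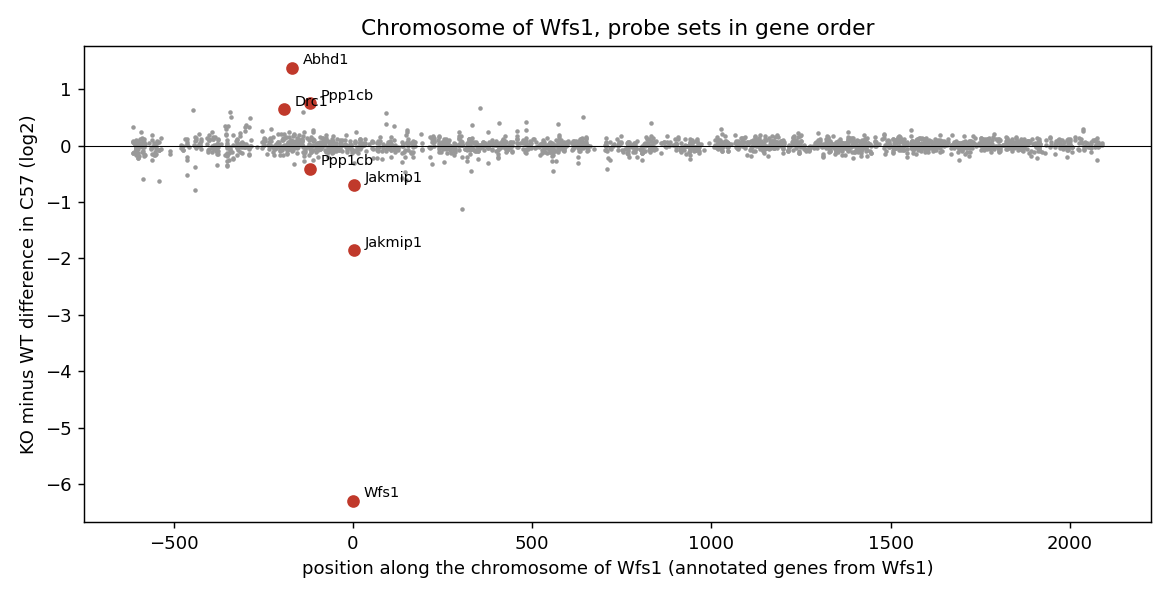
KO minus WT difference in C57 (log2, vertical axis) of the probe sets on chromosome 5, in the order of annotated genes counted from Wfs1 (horizontal axis, negative before it). Red points are the 7 called probe sets, and the last probe set that differs by at least 0.5 lies 641 genes after Wfs1.

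Striatal neuron genes were lower in KO as a group, though none passed the test. Medium spiny neurons, the projection neurons of the striatum, were represented by 19 measured genes common to both output pathways. All 19 were lower, with a median difference of -0.26 beside 0.02 over all genes. In 129 the median of the same list was -0.14, and the difference between the KO effects in C57 and 129 passed for none of the 19. An unadjusted p under 0.05 with a lower level was found for 16 of the 19, against 1.74% of the brightest probe sets of all genes. None of the 19 passed the adjusted threshold. The list was chosen with earlier results of these data known. Its members also tended to rise and fall together across arrays, so the 16 are not separate pieces of support. Pde10a, the striatal cyclic nucleotide phosphodiesterase, had a lowest, median and highest signal of 8.26, 8.70 and 9.47 in KO and of 8.80, 9.41 and 9.81 in WT. Most KO arrays were low and the ranges overlapped widely, and the difference of -0.60 (SE 0.16) had an adjusted p of 0.551 by limma. Rarb, a retinoic acid receptor, differed by -0.49 (adjusted p 0.694), Ppp1r1b, which encodes the dopamine-regulated phosphoprotein DARPP-32, by -0.37 (adjusted p 0.869), and Rgs9, a striatal regulator of G protein signalling, by -0.42 (adjusted p 0.849). A second and dimmer probe set of Rgs9 (1439635_at) was at -0.50 (adjusted p 0.261 by limma). It was among the 8 lowest uncalled statistics at or above the 40th percentile of signal.

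Genes of the single pathways showed the same order of groups. Of 4 measured genes of the indirect pathway 3 were lower, with a median of -0.42 (-0.14 in 129). Drd2, the dopamine receptor of these neurons, was at 5.91, 6.39 and 7.10 in KO and 6.29, 7.08 and 7.72 in WT, a difference of -0.59 (SE 0.17, adjusted p 0.696 by limma). Gpr6, an orphan receptor, differed by -0.77 (adjusted p 0.633) and Penk, which encodes the enkephalin precursor, by -0.26 (adjusted p 0.741), while Ptprm was at 0.01. All 6 genes of the direct pathway were below 0, with a median of -0.11 (-0.07 without KO array 10, and -0.07 in 129). The leading ones were Tac1, the substance P precursor (-0.34, adjusted p 0.792), and the dopamine receptor gene Drd1 (-0.37, adjusted p 0.869). The score of the shared list, in which each member is centred on its mean over the 18 arrays and the members are averaged, ran from -0.50 through -0.23 to 0.23 in KO and from -0.33 through 0.22 to 0.63 in WT. KO arrays 1 and 17 scored like most WT arrays and WT array 37 scored like the low KO arrays. The mean scores differed by -0.41 among lower and by -0.32 among higher sample numbers. Whether the dissections held unequal amounts of striatum was not tested.

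**Figure D4:**
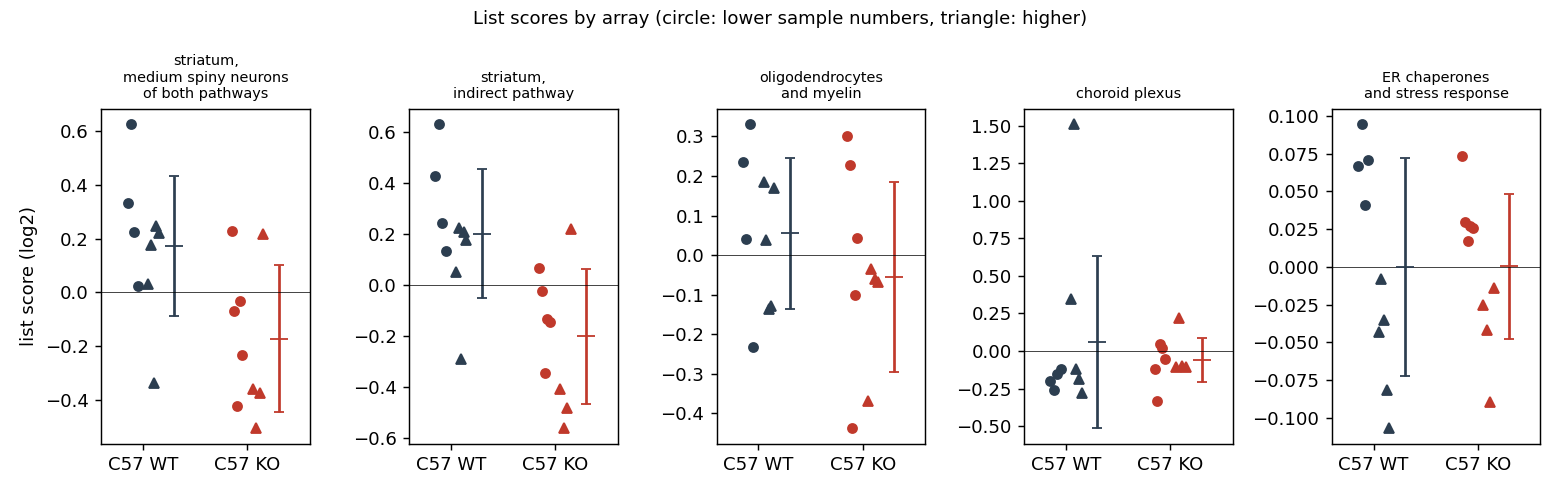
Scores of 5 gene lists (log2, vertical axes with their own ranges), averages of the centred signals of a list's members, for each C57 array. Circles are arrays with lower and triangles with higher sample numbers, and the side bars give mean and SD (n = 9). Striatal scores are lower in most KO arrays but overlap with WT, the score of ER genes is positive in the lower-number arrays and negative in the higher-number arrays of both genotypes, and WT array 34 stands alone at 1.51 for choroid plexus genes.

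No gene of the unfolded protein response passed the test. Cells sense unfolded proteins in the ER through IRE1, PERK and ATF6, which switch on chaperones and, under lasting stress, genes tied to cell death. All 32 listed genes were measured and 0 were called. Their median difference was 0.01, with 20 above and 12 below 0 and sizes of at most 0.12. Hspa5, the main ER chaperone BiP, was at 10.17, 10.32 and 10.42 in KO and 9.95, 10.31 and 10.53 in WT, with a difference of 0.06 (SE 0.07, adjusted p 0.977 by limma). Ddit3, the stress factor CHOP, differed by -0.04 (SE 0.06, adjusted p 0.982). Xbp1, whose RNA is spliced by IRE1, had the smallest p of the list at -0.12 (SE 0.05, adjusted p 0.817), with KO at 9.44 to 9.69 and WT at 9.57 to 9.79.

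Many of these genes can be grouped by a shared sequence before their start. The ER stress element, read by ATF6 with NF-Y, has the letters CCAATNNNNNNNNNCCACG. It was searched on both strands of the 250 bases upstream of each annotated start, and only exact matches of its fixed letters were counted. It was present in 10 of the 28 listed ER genes with a promoter entry and in 0.113% of all 32851 promoters of that length. No exact match was found in the Wfs1 window above or in the windows of Jakmip1, Drc1 and Ppp1cb, and Abhd1 has no entry. The Hspa5 window is shown as the best known example, with its match in capitals.
Hspa5, chr2:34771840-34772089, plus strand: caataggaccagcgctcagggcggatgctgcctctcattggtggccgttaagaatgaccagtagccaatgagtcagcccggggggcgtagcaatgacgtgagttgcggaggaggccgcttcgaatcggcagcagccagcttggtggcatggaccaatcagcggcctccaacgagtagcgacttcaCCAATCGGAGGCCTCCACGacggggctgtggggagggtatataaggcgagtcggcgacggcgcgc

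The other matches are shown with 10 bases on either side, with the fixed letters of the element in capitals, in the orientation of the element and on the strand named.
Hsp90b1, chr10:86705628-86705666, minus strand: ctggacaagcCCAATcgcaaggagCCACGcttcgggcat
Hsp90b1, chr10:86705523-86705561, plus strand: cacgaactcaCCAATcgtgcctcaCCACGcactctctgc
Calr, chr8:84847065-84847103, plus strand: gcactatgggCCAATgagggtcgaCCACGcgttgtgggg
Canx, chr11:50325790-50325828, minus strand: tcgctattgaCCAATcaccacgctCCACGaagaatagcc
Pdia6, chr12:17266481-17266519, plus strand: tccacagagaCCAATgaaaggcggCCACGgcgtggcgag
Dnajc3, chr14:118937817-118937855, plus strand: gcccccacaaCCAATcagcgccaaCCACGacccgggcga
Creld2, chr15:88819510-88819548, minus strand: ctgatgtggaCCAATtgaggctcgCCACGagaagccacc
Syvn1, chr19:6046522-6046560, plus strand: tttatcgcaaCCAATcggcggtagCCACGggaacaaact
Derl3, chr10:75893232-75893270, minus strand: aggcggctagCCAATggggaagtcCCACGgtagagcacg
Ero1b, chr13:12565672-12565710, minus strand: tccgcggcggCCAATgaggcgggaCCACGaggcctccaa
The 10 genes with the element differed between KO and WT by -0.10 to 0.10, with a median of 0.01, and 7 of them were above 0. Calr, the calcium-binding chaperone calreticulin, was at -0.01 (SE 0.08), Hsp90b1, the ER form of HSP90, at 0.01 (SE 0.05), Dnajc3, a co-chaperone of BiP, at 0.10 (SE 0.09), and Derl3, a part of the retrotranslocation machinery, at -0.10 (SE 0.06). The adjusted p was 0.941 or more in each of the 10. The summed signal of ER genes moved with the array sets in both genotypes, and the mean score differed between KO and WT by -0.03 among lower and 0.01 among higher sample numbers.

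Other functions linked to Wfs1 showed small differences of either sign. Cisd2, the second Wolfram syndrome gene, was at 5.94 to 6.79 in KO and 6.02 to 6.55 in WT, with a difference of 0.01 (SE 0.11, adjusted p 0.999 by limma). Of 24 ER calcium and calcium buffer genes 14 were lower, with a median of -0.01 and 0 called. The smallest p was that of the ryanodine receptor Ryr3 (-0.24, adjusted p 0.633), followed by Calb2, the buffer calretinin, at 0.24 (adjusted p 0.696). Among 6 sodium pump subunits the median was 0.04, and Atp1b1, whose protein binds wolframin, differed by -0.06 (SE 0.05, adjusted p 0.967). Of 12 genes of secretory granules and prohormone processing 10 were higher, with a median of 0.04 and 0 called. Pcsk1n, an inhibitor of prohormone convertase, had the smallest p, at 0.13 (adjusted p 0.826), and Pam, which amidates peptides, the largest difference, at 0.30 (adjusted p 0.901). Higher differences at an unadjusted p under 0.05 made up 4.2% of the brightest probe sets of all genes, and 1 of these 12. The pituitary hormone genes were dim, with Gh at 3.60 to 4.26 in KO and 3.58 to 4.20 in WT and Prl at 2.35 to 2.99 and 2.53 to 2.97. Of 21 genes of the growth hormone and IGF axis 13 were higher, with a median of 0.06, while Igf2 was at -0.35 (adjusted p 0.817).

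Lists of neuronal signalling held no called gene. Of 17 GABA genes 10 were lower, with a median of 0.00, and the largest size was that of the transporter Slc6a11 at 0.45 (SE 0.15, adjusted p 0.75 by limma). The 19 glutamate receptor genes had a median of 0.05, the 15 neuropeptides 0.05 and the 13 serotonin and noradrenaline receptors 0.00. Of 25 activity-induced early genes 18 were lower, with a median of -0.06 (-0.14 in 129). The C57 median was -0.02 among the lower-number and -0.14 among the higher-number arrays, and -0.02 and -0.01 without WT arrays 29 and 40. Npas4, an early gene of neurons, differed by -0.50 (SE 0.19, adjusted p 0.817), whereas Jun differed by 0.21 (adjusted p 0.787). Mitochondrial respiratory chain genes were lower in 21 of 29 cases, with a median of -0.03 and no size above 0.12. The median was 0.01 among the lower-number and -0.05 among the higher-number arrays, and -0.01 without KO array 9 or 10.

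Cell type and region markers other than those of the striatum held no called gene except Wfs1 and Drc1, and the lower medians among them were those of oligodendrocytes and choroid plexus. The 17 hippocampal markers other than Wfs1 had a median of 0.03, the cortical layer genes 0.01, astrocytes 0.03, microglia 0.02, vessels 0.02 and interneurons 0.04, each with 0 called. Oligodendrocyte and myelin genes were lower in 14 of 17 cases with a median of -0.12 (-0.07 without KO array 3), none of them with an unadjusted p under 0.05, and their score ranged from -0.44 to 0.30 in KO and from -0.23 to 0.33 in WT. Choroid plexus genes were lower in 12 of 13 cases with a median of -0.12, in a list where 7 of 13 were under the 40th percentile of signal. Their scores overlapped, and WT array 34, the array with the high Abhd1 value, reached 1.51 while the KO arrays ran from -0.33 to 0.22. Without WT array 34 the median of the list was 0.00, and among the lower-number arrays it was 0.02. Prkcd, a kinase of thalamus and central amygdala, had a difference of 0.23 (adjusted p 0.75), and Acta2, the smooth muscle actin of vessels, one of -0.54 (adjusted p 0.75).

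**Figure D5:**
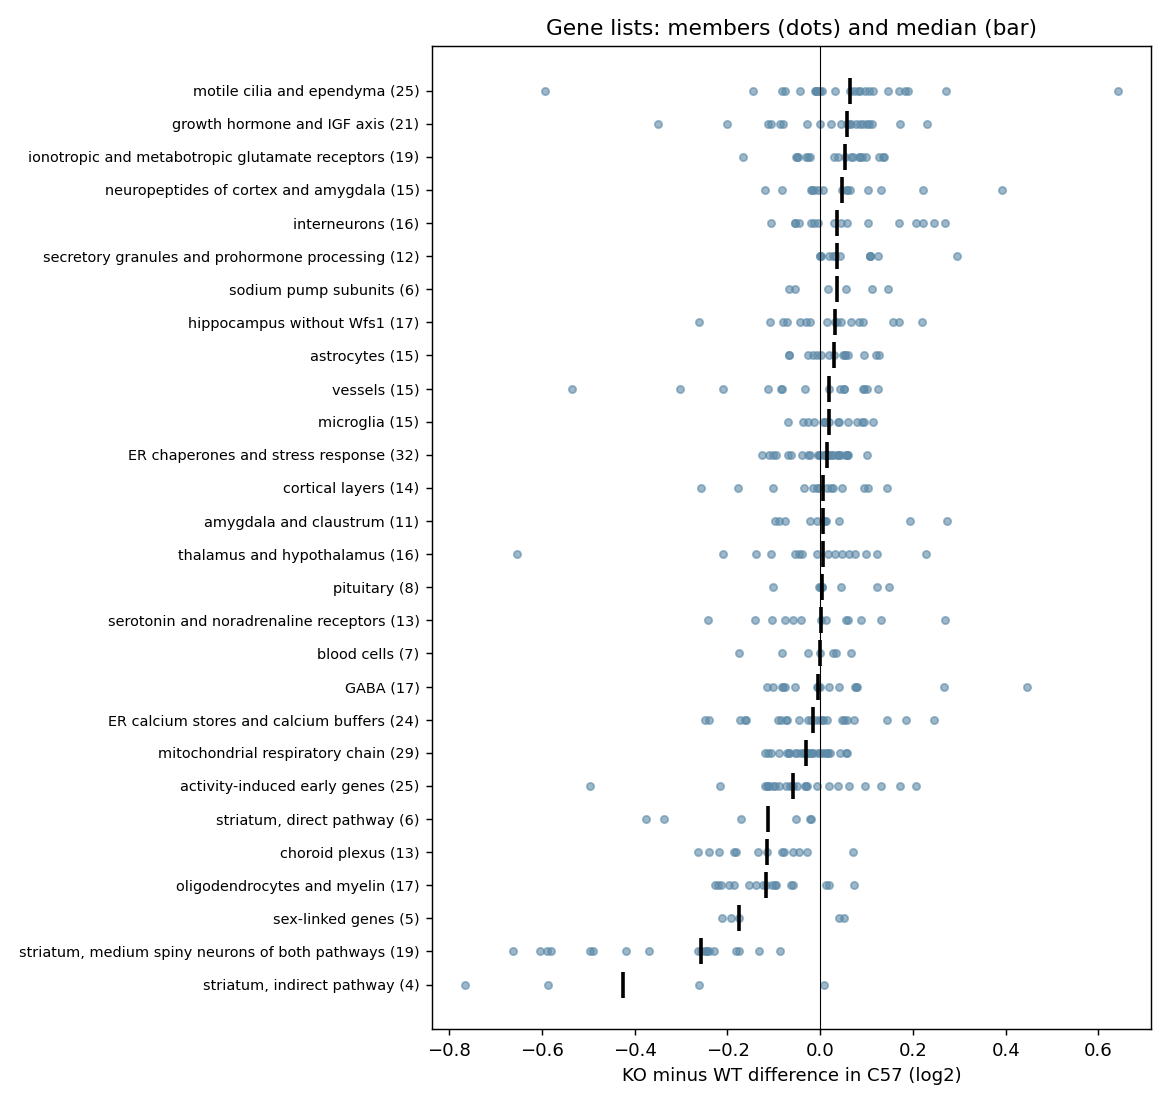
KO minus WT difference in C57 (log2, horizontal axis) of the brightest probe set of each measured gene, by gene list (vertical axis, number of measured genes in brackets). Dots are genes and black bars list medians. The medians of most lists lie within 0.1 of 0, and those of the striatal lists are at -0.42, -0.26 and -0.11.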

How the data were processed

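Gene expression in mouse temporal lobe was measured on 37 Affymetrix arrays, and the 18 arrays of C57 were compared here. The deposited values were log2 signals, 1 per probe set, which the authors had already normalized. The submitters' processing notes name MAS5 and GCRMA, with versions and roles not given in the sources used here. Values were used as deposited. Their depth is set by probe signal, and the number of arrays limits the precision. The 64 control probe sets were left out, and 45037 were tested. A single gene symbol was given for 34945 of them, more than 1 for 932, and no symbol for 9160.

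A model with 1 mean per group was fitted with limma 3.58.1 in R 4.3.3, with moderated tests and Benjamini-Hochberg adjustment over all probe sets, and called at an adjusted p under 0.05. The difference between strains was fitted on all 37 arrays. The code was tested on simulated data. Gene lists used the brightest of each gene's probe sets (18193 genes), and gene order, promoters and updated symbols came from RefSeq GRCm38.p6. Sequences and plots were handled with Python 3.11.15, pandas 2.3.3 and matplotlib 3.10.9.

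The text names each called probe set and every probe set of a called gene. Among uncalled named probe sets at or above the 40th percentile of signal, it names the 8 highest and 8 lowest statistics. Clone names were left out there. It also names Wfs1, Abhd1, Drc1, Cisd2, Hspa5, Ddit3, Xbp1, Atp1b1, Gh and Prl, and up to 3 leading members of each list. Further genes, such as Atp8a1, Ppp1r1b, Rgs9 and the ER genes with the element, were named after their values had been seen. The comparison and the lists were chosen with earlier results of these data known. Alternatives were a filter at the 40th percentile, reached by the mean of either group, quantile normalization, median centring, and array set as a block or alone. Others were the spread of all 37 arrays, trend and robust moderation, array weights, 1 value per gene, and each array left out.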

Additional observations from a re-analysis of the deposited data

Results flagged for a closer look

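On 4 of 74 groups of 9 arrays examined, 1 array stood apart by Dixon's ratio, the gap to the next array divided by the range of the group, which exceeded the 95% critical value. Chance gives about 1 in 20 such groups. WT array 42 was high for Wfs1 (9.73, the others 9.16 to 9.38, ratio 0.62). WT array 34 was high for Abhd1 (5.37, the others 4.14 to 4.71, ratio 0.537). KO array 10, which also had the highest actin 3' to 5' difference (1.94), was high for unnamed 1447094_at (3.14, the others 2.50 to 2.69, ratio 0.71). WT array 29 was high for Ppp1cb 1433540_x_at (9.52, the others 9.26 to 9.39, ratio 0.495).

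The knockout effect differed between C57 and 129 for 9 of the probe sets called in C57, by limma's test of the difference of the effects over 37 arrays. They were called by the C57 difference that this test contains, so their number is no separate support. The differences of effects (C57 minus 129) with adjusted p were -1.89 (9.92e-12) and -0.80 (3.18e-05) for Jakmip1 1433815_at and 1430597_at, 1.37 (1.12e-06) for Abhd1, 0.59 (0.0028) for Drc1 and 0.81 (0.000589) for Ppp1cb 1431328_at. For the probe sets without a symbol they were -2.48 (1.12e-06) for 1440807_at, -1.36 (0.00156) for 1442241_at, -2.50 (0.00156) for 1446324_at and -0.56 (0.0207) for 1447094_at.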

How the results depend on the processing

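The count of 11 called probe sets in C57 was 11 with the filter or median centring, 16 with quantile normalization, 17 with the array set as a block, 19 with trend and robust moderation, 35 with the spread of all 37 arrays, 8 and 2 in the lower and higher array sets alone, 7 with the brightest and 4 with the mean probe set of each gene, and 10 to 16 without single arrays. The filter kept a probe set when the mean of KO or of WT reached the 40th percentile, so a probe set could pass through its higher group alone. Jakmip1 1430597_at, with a mean of 3.435 over the 18 arrays and a threshold of 3.6, stayed in this way. The unchanged count of 11 with the filter is therefore no separate support. The filter dropped unnamed 1447094_at and added Zranb3. The count for the difference between strains was 9 to 16 without single arrays. List medians that moved by more than the spread were those of amygdala and claustrum (-0.12 in the lower and 0.0819 in the higher set), of hippocampus (-0.0198 with and -0.0162 without Wfs1 in the lower set, and -0.00982 to 0.0345 without single arrays) and of sex-linked genes (0.0427 in the higher set). The sign turned for Ppp1cb 1426205_at with the mean of the gene's probe sets (0.0678). It also turned for uncalled genes near 0: Ppp1cb 1456462_x_at (-0.00188 with quantile normalization, -0.0227 in the higher set), Cisd2 (-0.00402 with quantile normalization, -0.0100 with the block, -0.129 in the higher set, -0.00019 as a mean), Gh (-0.000921 with the block, -0.17 in the higher set), Hspa5 (-0.0467 in the lower set, -0.0125 as a mean) and Atp1b1 (0.0217 as a mean). Without single arrays the values ran from -0.0385 to 0.0348 for 1456462_x_at, from -0.0561 to 0.0495 for Cisd2 and from -0.0432 to 0.0483 for Gh. The causes were not tested. No paired analysis was possible because C57 KO and C57 WT share no sample number.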

Other observations

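With the spread estimated from all 37 arrays, 5 named genes away from chromosome 5 passed the threshold for the C57 difference. None of these 5 was called in the 18 arrays alone. Abcb10, a mitochondrial transporter on chromosome 8, was at 3.31 to 4.83 in KO and 4.41 to 4.92 in WT, with a difference of -0.76 and an adjusted p of 0.204 in the 18 arrays and 0.00139 with all arrays (limma). Its means in 129 were 3.60 in KO and 3.61 in WT. The 129 arrays spread less than those of C57 KO, from 3.425 to 3.804 in 129 KO and 3.375 to 3.764 in 129 WT. The SE was 0.16 in the 18 arrays and 0.13 with all arrays. The probe set, 1416403_at, was not the brightest of Abcb10. The chemokine receptor gene Ccr6 differed by -0.74 (adjusted p 0.0145 in the larger fit), Vit, which encodes the matrix protein vitrin, by 0.36 (adjusted p 0.0181) and Ypel1 by 0.25 (adjusted p 0.0273). Tcf25 differed by -0.41 (adjusted p 0.359 in the 18 arrays and 0.0234 with all arrays). Its probe set, 1460109_at, was likewise not the brightest of the gene.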
